A study of Mus musculus with 6 samples.

Results

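The cyclin-dependent kinase (CDK) inhibitors, p53 with its antagonist MDM2, and a pair of common senescence readouts were followed in damaged hepatocytes (dHeps). The 10 genes were picked by name from the 52323 genes of the deposited count table: Cdkn1a, Cdkn1b, Cdkn2a, Cdkn2b, Cdkn2c, Cdkn2d, Trp53, Mdm2, Lmnb1 and Glb1. All 10 passed the filter on low counts and were among the 19135 genes tested.

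The study asked whether small molecules return dHeps to a hepatocyte state, and staining for senescence-associated β-galactosidase was among its assays. All cells came from livers injured with carbon tetrachloride. The donor genotype was AAV-TBG-Cre:Rosa-LSL-tdTomato, in which Cre under the liver-specific TBG promoter switches on the red reporter tdTomato. Bulk RNA was sequenced on day 16 of culture in serum-free Hepatocyte Maintenance Medium, in 3 groups of 2 libraries. No sort of the cells by reporter is described for these cultures. The age in the study's methods, which is that of young adults, applies before the weeks of injury. Donors were therefore older when cells were isolated.

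The DMSO group received the solvent alone. The 3C group received ETC-1002 (bempedoic acid, 5 µM), the kinase inhibitor GSK429286A (2 µM) and the protein kinase D inhibitor CID755673 (50 µM). The 5C group received these compounds at the same doses together with 5 µM salidroside and 2 µM forskolin, which activates adenylate cyclase. The labels do not say whether the 2 libraries of a group came from separate animals or cultures, so p-values measure the spread between these libraries, which may be technical. The paper states that n in its figures means biological replicates, without saying what separated these libraries.

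CDK inhibitors hold the cell cycle in G1. The CIP/KIP members p21 (Cdkn1a) and p27 (Cdkn1b) bind CDK2 complexes, whereas the INK4 members p16 (Cdkn2a), p15 (Cdkn2b), p18 (Cdkn2c) and p19 (Cdkn2d) bind CDK4 and CDK6 and so keep RB active. The transcription factor p53 induces p21 and also MDM2, the ubiquitin ligase that destroys p53, and the Cdkn2a locus encodes ARF as well, which blocks MDM2. In senescent cells, including hepatocytes of chronically injured liver, p21 or p16 is typically raised, lamin B1 (Lmnb1) is lost and lysosomal β-galactosidase (Glb1) accumulates.

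The 6 libraries held 65916573 to 69245895 estimated counts each, and values per library are given as CPM, counts scaled to a fixed library total. Across all genes, log2 CPM correlated at 0.975 to 0.977 within groups and 0.935 to 0.969 between groups. The labelled cell type was checked with marker lists. Of 13 hepatocyte markers tested, 12 were higher and 1, Arg1, was lower with either cocktail than with DMSO. Among all genes tested, 15.6% were higher and 13.1% lower in 5C than in DMSO, and 12.7% and 11.8% in 3C. The log2 fold change of Arg1 was -0.85 for 5C and -0.33 for 3C. Albumin (Alb) averaged 1270 CPM in DMSO, 7590 CPM in 3C and 8580 CPM in 5C, and the 13 hepatocyte markers in the table (of 14 listed) summed to 3120 to 3400 CPM in DMSO, to 13500 to 14200 with 3C and to 12600 to 18000 with 5C. The 20 macrophage markers summed to 14100 to 15200 CPM in DMSO, 4950 to 4970 in 3C and 3350 to 3390 in 5C. None of the 20 was at 0 in every library, and Adgre1, which encodes the macrophage antigen F4/80, averaged 421, 129 and 83.1 CPM. The T cell marker Cd3e was at 0 in every library. The 10 endothelial markers summed to 447 to 474 CPM in DMSO, 207 to 241 in 3C and 268 to 388 in 5C, and most of the DMSO sum was Lyve1, the only member that passed as lower than in DMSO (314, 72.1 and 57.6 CPM on average). Of the 9 endothelial markers tested, 5 were higher in 5C than in DMSO and 3 in 3C, with Pecam1 at 0.788, 5.94 and 31.9 CPM. The 8 cholangiocyte markers summed to 2930 to 3420, 3620 to 3790 and 2440 to 2740 CPM, most of it Spp1, which was lower in 5C than in DMSO (log2 fold change -0.43), whereas 6 of the 8 were higher than in DMSO in each cocktail. In bulk samples, fewer cells of a type and less RNA per cell cannot be told apart. Sums of different marker lists do not measure the shares of the cell types. The paper reports a high share of tdTomato-positive cells after its hepatocyte-enriching isolation.

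**Figure D1:**
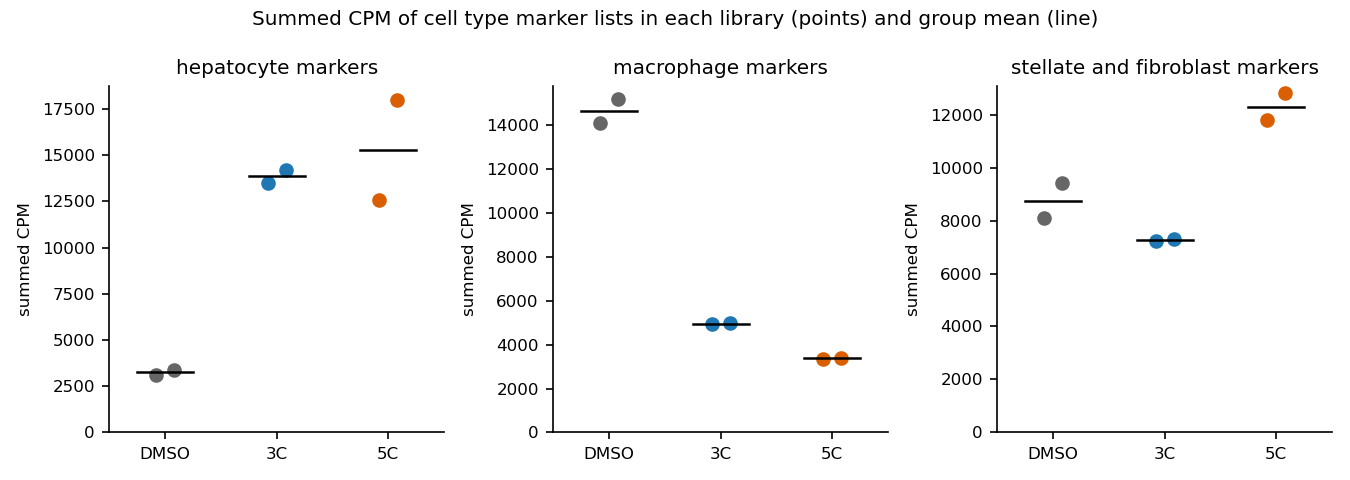
Summed CPM (vertical axes) of the hepatocyte, macrophage, and stellate and fibroblast marker lists in the DMSO, 3C and 5C groups. Points are the 2 libraries of a group and lines are group means. The macrophage sums of 14100 to 15200 CPM in DMSO sit above every library of 3C and 5C. The hepatocyte sums in DMSO sit below every library of 3C and 5C, whose ranges overlap.

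Of the 10 genes, 5 were lower in 5C than in DMSO at a Benjamini-Hochberg adjusted p under 0.05 (edgeR quasi-likelihood test over all genes): Cdkn1a, Cdkn2b, Cdkn2d, Mdm2 and Glb1. None of the 10 was higher by that test, by DESeq2, or at an unadjusted p under 0.05. Over all genes tested, 28.7% passed in this comparison, 15.6% higher and 13.1% lower. The median log2 fold change was -0.31 over the 10 genes and 0.0 over all genes tested.

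In 3C, 5 of the 10 were likewise lower than in DMSO: Cdkn2b, Cdkn2c, Cdkn2d, Mdm2 and Glb1. None was higher by edgeR or DESeq2, and 1, Lmnb1, was higher at an unadjusted p under 0.05. The background was 24.5% of all genes, 12.7% higher and 11.8% lower, and the medians were -0.30 for the 10 genes and 0.01 for all genes tested. The comparisons of 5C and 3C with DMSO share the DMSO libraries, so their calls are not independent.

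Between 5C and 3C, only Cdkn2a passed among the 10, and it was higher in 5C. The background was 12.7% of all genes, with 7.33% higher and 5.33% lower, so that 1 of 10 was near it. None of the 10 was lower in 5C than in 3C by edgeR or DESeq2, or at an unadjusted p under 0.05. In no comparison did any of the 10 change by more than 1 on the log2 scale, a size at which 11.7% of all genes passed for 5C against DMSO, 9.45% for 3C against DMSO and 3.01% for 5C against 3C.

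**Figure D2:**
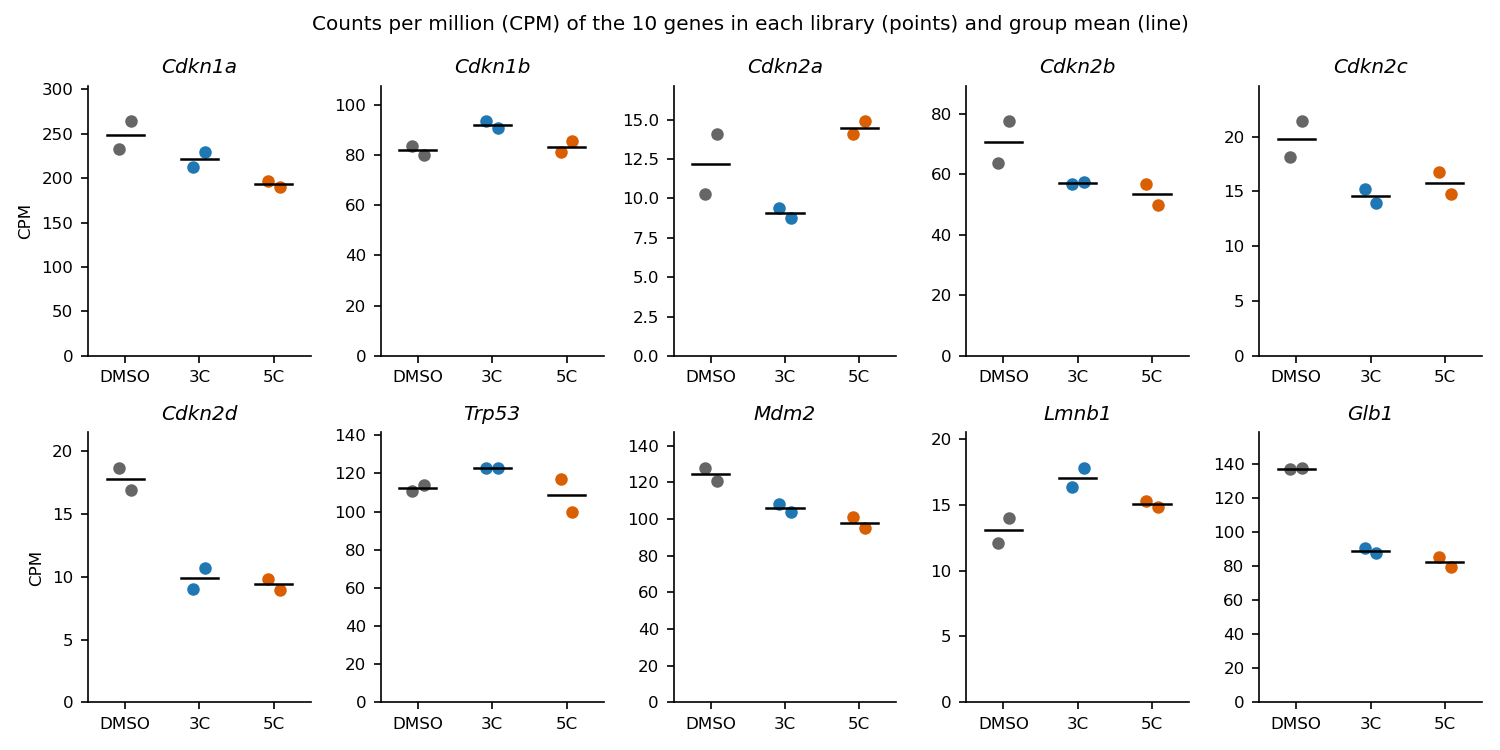
CPM (vertical axes, each from 0) of the 10 genes in the DMSO, 3C and 5C groups, with points for the 2 libraries of a group and lines for their mean. Both libraries of either cocktail lie below both DMSO libraries for Cdkn2d and Glb1, and both 5C libraries lie above both 3C libraries for Cdkn2a.

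Levels of different genes were compared on the deposited FPKM scale, which accounts for gene length. Cdkn1a was the most abundant of the 10 in each group, at 124 ± 5.23 FPKM in DMSO (mean ± SD, n = 2), 106 ± 8.10 in 3C and 94.4 ± 4.59 in 5C. Trp53 was next, at 55.7 ± 0.434, 60.4 ± 1.42 and 54.4 ± 7.18 FPKM. Both ranges stood clear of the gene below them.

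Glb1, Cdkn2b and Mdm2 followed at 43.1 to 52.0 FPKM in DMSO and 30.9 to 36.8 in the cocktails. Cdkn2b and Mdm2 overlapped in every group, and Mdm2 and Glb1 overlapped in 3C and 5C. Cdkn1b lay clear of both neighbours at 25.4 to 27.9 FPKM on group means.

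Cdkn2a, Cdkn2c, Cdkn2d and Lmnb1 were the lowest. Lmnb1 was last in each group, at 4.16 ± 0.284, 5.37 ± 0.418 and 4.78 ± 0.211 FPKM. Cdkn2d overlapped Cdkn2a in DMSO, and in 3C it overlapped both Cdkn2c and Lmnb1.

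Cdkn1a (ENSMUSG00000023067, chr17:29309936-29319701, plus strand, GRCm39) encodes p21, a direct target of p53. Its upstream annotated start is shown because the 300 bases around it, most of them before the start, held a pair of p53 core motifs, CATG with 6 bases between the copies, printed in capitals. This window lies at chr17:29309703-29310002 on the plus strand (sequence from RefSeq on GRCm38.p6, matched exactly to GRCm39), and 0.712% of 32851 RefSeq start windows held the motif when searched on both strands. The window of the downstream Cdkn1a start (chr17:29312493-29312792, plus strand) did not hold it. Of the 12 start windows available for the 10 genes, 1 held this pair, and the Mdm2 window did not. A match describes letters and not a bound site.

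Cdkn1a, upstream start: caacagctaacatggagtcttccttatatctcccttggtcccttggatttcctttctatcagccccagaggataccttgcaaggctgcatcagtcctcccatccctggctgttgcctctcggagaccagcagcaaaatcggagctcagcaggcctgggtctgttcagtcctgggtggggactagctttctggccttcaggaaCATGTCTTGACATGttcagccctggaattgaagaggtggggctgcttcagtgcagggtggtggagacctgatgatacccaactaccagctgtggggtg

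Cdkn1a was at 233 and 264 CPM in the DMSO libraries, 213 and 229 in 3C, and 197 and 190 in 5C. The 5C libraries were the lowest and overlapped neither of the other groups. The log2 fold change in 5C against DMSO was -0.34 (SE 0.08, adjusted p = 0.0142), a 21.2% lower level. In 3C it was -0.20 (SE 0.08, adjusted p = 0.123), and between 5C and 3C it was -0.14 with a 95% interval of -0.33 to 0.05 (adjusted p = 0.362). The call in 5C against DMSO was lost without DMSO replicate 2 (-0.23, adjusted p = 0.0579), 5C replicate 1 (-0.35, 0.0588) or 5C replicate 2 (-0.34, 0.0647). In 3C the difference passed without DMSO replicate 1 (-0.30, adjusted p = 0.0253).

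Cdkn1b (ENSMUSG00000003031, chr6:134897364-134902476, plus strand) encodes p27, which is controlled largely by protein breakdown through the ubiquitin ligase subunit SKP2. Its levels were 83.6 and 80.1 CPM in DMSO, 93.4 and 90.7 CPM in 3C and 81.2 and 85.4 CPM in 5C. The 3C libraries were the highest, and the DMSO and 5C ranges overlapped. No comparison passed, with log2 fold changes of 0.04 in 5C (95% interval -0.11 to 0.2) and 0.14 in 3C (95% interval -0.02 to 0.29) against DMSO.

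Cdkn2a (ENSMUSG00000044303, chr4:89192708-89212890, minus strand) is a locus with 2 annotated coding transcripts. The transcript from the downstream start encodes p16 and has its own first exon of 207 bases. The transcript from the upstream start, 12461 bases away, encodes ARF and has its own first exon of 320 bases. They share 575 bases, 67.5% of the p16 transcript and 64.2% of the ARF transcript, so the gene total used here cannot separate p16 from ARF.

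**Figure D3:**
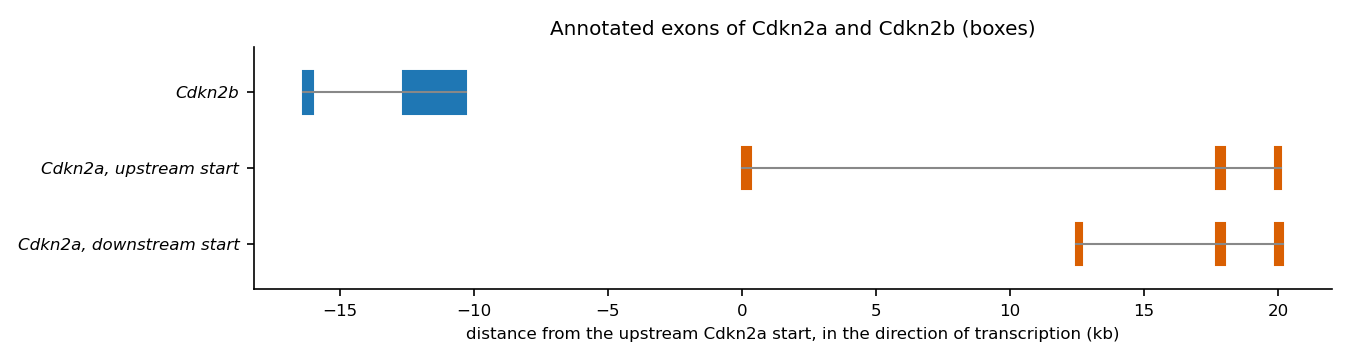
Annotated exons (boxes) of Cdkn2a and Cdkn2b against the distance in kb from the upstream Cdkn2a start, in the direction of transcription. The Cdkn2a transcripts differ in the first exon, their starts lie 12461 bases apart, and Cdkn2b ends 10313 bases before the upstream start.

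Both Cdkn2a starts are shown because either can feed the measured total. The downstream window (chr4:89200380-89200679, minus strand) had a GC content of 60.3% and none of the motifs searched. The upstream window (chr4:89212807-89213106, minus strand) had a GC content of 77% and held the E2F site TTTCCCGC, in capitals, which 1.07% of the RefSeq windows held. Source and build were those of the Cdkn1a window.

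Cdkn2a, downstream (p16) start: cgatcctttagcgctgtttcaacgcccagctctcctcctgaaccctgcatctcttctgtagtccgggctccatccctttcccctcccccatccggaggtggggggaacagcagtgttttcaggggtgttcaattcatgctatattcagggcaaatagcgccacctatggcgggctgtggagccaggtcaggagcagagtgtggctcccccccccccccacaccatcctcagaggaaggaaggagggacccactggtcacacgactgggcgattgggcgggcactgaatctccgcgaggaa
Cdkn2a, upstream (ARF) start: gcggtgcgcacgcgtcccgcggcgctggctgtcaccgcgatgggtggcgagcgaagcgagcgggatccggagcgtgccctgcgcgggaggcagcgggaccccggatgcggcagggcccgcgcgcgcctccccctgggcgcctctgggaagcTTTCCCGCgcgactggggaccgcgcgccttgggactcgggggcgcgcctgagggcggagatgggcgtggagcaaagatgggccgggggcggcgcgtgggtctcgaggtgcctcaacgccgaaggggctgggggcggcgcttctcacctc

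Cdkn2a was at 10.3 and 14.1 CPM in DMSO, 9.41 and 8.75 CPM in 3C and 14.1 and 14.9 CPM in 5C. Both 5C libraries were above both 3C libraries, the 3C libraries were below both DMSO libraries, and the 5C range overlapped the higher DMSO library. The level in 5C was 1.66 times that in 3C, a log2 fold change of 0.73 (SE 0.17, 95% interval 0.34 to 1.12, adjusted p = 0.0244). Against DMSO the values were 0.26 in 5C (adjusted p = 0.304) and -0.47 in 3C (adjusted p = 0.0857), and neither passed.

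This call rested on few libraries. Without 3C replicate 1 the difference between 5C and 3C was 0.78 (adjusted p = 0.111), without 3C replicate 2 it was 0.68 (0.157), without 5C replicate 1 it was 0.78 (0.0759) and without 5C replicate 2 it was 0.67 (0.132). Without DMSO replicate 1, Cdkn2a passed as lower in 3C than in DMSO (-0.68, adjusted p = 0.0166). The sum of stellate and fibroblast markers also stood higher in 5C than in 3C. The 12 markers, none at 0, summed to 8080 to 9410 CPM in DMSO, 7210 to 7320 in 3C and 11800 to 12800 in 5C. Most of it was Col1a1 and Col1a2, at 3770 and 4540 CPM on average in 5C and 2090 and 2330 in 3C. Of the 12, 6 were higher and 2 lower in 5C than in 3C, beside 7.33% and 5.33% of all genes tested. The 2 lower were Lrat (log2 fold change -0.86) and Rgs5 (-0.94). The 7 mesothelial markers, none at 0, summed to 979 to 1190, 1260 to 1410 and 2310 to 2410 CPM. The part of these cells in the Cdkn2a difference was not tested.

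Cdkn2b (ENSMUSG00000073802, chr4:89223204-89229276, minus strand) encodes p15, the INK4 inhibitor induced by TGF-β. It was at 63.7 and 77.6 CPM in DMSO, 56.7 and 57.6 CPM in 3C and 56.8 and 50.0 CPM in 5C. Every cocktail library was below both DMSO libraries, and the 3C and 5C ranges overlapped. Its log2 fold change was -0.39 in 5C (SE 0.11, adjusted p = 0.0246) and -0.34 in 3C (SE 0.11, adjusted p = 0.0481) against DMSO. In 5C the call was lost without DMSO replicate 2 (-0.22, adjusted p = 0.131) or 5C replicate 2 (-0.31, 0.145). In 3C it held in only 6 of 16 alternative fits (other normalizations, filters and tools, a replicate block, counts divided by 4, and each library left out) and was lost, among others, without DMSO replicate 2 (-0.17, adjusted p = 0.263), 3C replicate 1 (-0.33, 0.206), 3C replicate 2 (-0.35, 0.167), 5C replicate 1 (-0.34, 0.0619) or 5C replicate 2 (-0.33, 0.0581), and with the replicate number as a block (-0.34, 0.0693).

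Cdkn2a and Cdkn2b are neighbours 10313 bases apart. Their values against DMSO were 0.26 and -0.39 in 5C, and -0.47 and -0.34 in 3C.

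Cdkn2c (ENSMUSG00000028551, chr4:109517957-109524386, minus strand) encodes p18. It was at 18.1 and 21.4 CPM in DMSO, 15.2 and 13.9 CPM in 3C and 16.8 and 14.8 CPM in 5C. Cocktail libraries were again all below the DMSO libraries, and 3C and 5C overlapped. It fell in 3C, with a log2 fold change of -0.48 (SE 0.13, adjusted p = 0.0286), and in 5C it was -0.30 (SE 0.13, adjusted p = 0.128). The difference of 5C from 3C was 0.17, with a 95% interval of -0.13 to 0.48. The 3C call was lost without DMSO replicate 2 (-0.33, adjusted p = 0.146), 3C replicate 1 (-0.54, 0.0915) or 3C replicate 2 (-0.42, 0.187), and with limma on FPKM.

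Cdkn2d (ENSMUSG00000096472, chr9:21199700-21202727, minus strand) encodes the INK4 protein p19, which is distinct from ARF. It was at 18.7 and 16.9 CPM in DMSO, 9.07 and 10.7 CPM in 3C and 9.85 and 8.97 CPM in 5C. Every cocktail library was below both DMSO libraries, and 3C and 5C overlapped. It fell by 46.4% in 5C (log2 fold change -0.90, SE 0.14, adjusted p = 0.00126) and by 45.5% in 3C (-0.88, SE 0.14, adjusted p = 0.00175), the largest changes among the 10 genes. These calls held in all 16 alternative fits of each comparison. The difference of 5C from 3C was -0.03 (95% interval -0.34 to 0.29).

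Trp53 (ENSMUSG00000059552, chr11:69469669-69482701, plus strand) encodes p53, whose amount is set mainly by protein stability. It was at 111 and 114 CPM in DMSO, 123 and 123 CPM in 3C and 117 and 100 CPM in 5C. The 5C libraries enclosed the DMSO values, and the 3C libraries were above every other. No comparison passed: the log2 fold change was -0.03 in 5C (95% interval -0.21 to 0.15) and 0.10 in 3C (-0.08 to 0.28) against DMSO. The antisense neighbour Wrap53, whose reads cannot be told from those of Trp53 where their exons overlap, was at 7.81 to 11.0 CPM.

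Mdm2 (ENSMUSG00000020184, chr10:117524780-117546730, minus strand) encodes the ubiquitin ligase for p53 and is itself a p53 target. It was at 128 and 121 CPM in DMSO, 108 and 104 CPM in 3C and 101 and 95 CPM in 5C. The 3 groups did not overlap, with DMSO the highest and 5C the lowest. It fell by 0.32 on the log2 scale in 5C (SE 0.06, adjusted p = 0.00535) and by 0.26 in 3C (SE 0.06, adjusted p = 0.017), and 5C and 3C differed by -0.06 (95% interval -0.21 to 0.09). The 5C call held in 16 of 16 alternative fits. The 3C call held in 11 of 16, and was lost without DMSO replicate 1 (-0.23, adjusted p = 0.0627), 3C replicate 1 (-0.28, 0.108) or 3C replicate 2 (-0.24, 0.163) and with limma on FPKM.

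Lmnb1 (ENSMUSG00000024590) encodes lamin B1 of the nuclear lamina. It was at 12.1 and 14 CPM in DMSO, 16.3 and 17.8 CPM in 3C and 15.3 and 14.8 CPM in 5C. Every cocktail library was above both DMSO libraries, and the 3C libraries were the highest. Neither difference passed: the log2 fold change was 0.23 in 5C (SE 0.13, 95% interval -0.07 to 0.52, adjusted p = 0.24) and 0.35 in 3C (SE 0.13, 0.06 to 0.65, adjusted p = 0.0818). Without DMSO replicate 2 the 3C value passed (0.48, adjusted p = 0.0444). Lmnb1 is uncertain, since 16.6% of its 50-base words also occur in other genes, most often in the overlapping antisense gene Marchf3. The antisense gene Gm58425 overlaps Lmnb1 as well. Marchf3 was at 2.48 to 5.63 CPM, lower in 3C than in DMSO (log2 fold change -0.76, adjusted p = 0.0483) and higher in 5C than in 3C (0.89, adjusted p = 0.0434). For each of the other 9 genes fewer than 10% of these words were shared with another gene.

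Glb1 (ENSMUSG00000045594, chr9:114230144-114303966, plus strand) encodes the lysosomal β-galactosidase whose activity is read by the senescence stain. Its start window (chr9:114229896-114230195, plus strand, RefSeq, matched as above) is shown because it held TCACGTG, the E-box core of the lysosomal regulator TFEB, in capitals. Of all RefSeq windows, 3.77% held this motif on either strand, and among the 10 genes a Cdkn2c window held it as well.

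Glb1: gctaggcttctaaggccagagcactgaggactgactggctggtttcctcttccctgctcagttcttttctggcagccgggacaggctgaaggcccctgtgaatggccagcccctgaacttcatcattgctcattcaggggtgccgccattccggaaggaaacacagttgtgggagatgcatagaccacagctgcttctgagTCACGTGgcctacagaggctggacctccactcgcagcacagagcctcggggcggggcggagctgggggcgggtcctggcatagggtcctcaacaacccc

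Glb1 was at 137 and 138 CPM in DMSO, 90.7 and 87.8 CPM in 3C and 85.5 and 79.9 CPM in 5C. The groups did not overlap, and Tmppe, which shares exon bases with Glb1, was at 8.15 to 13.9 CPM. Glb1 fell by 39.0% in 5C (log2 fold change -0.71, SE 0.06, adjusted p = 4.55e-05) and by 36.4% in 3C (-0.65, SE 0.06, adjusted p = 9.96e-05), and the calls held in all 16 alternative fits of each comparison. The log2 fold change between 5C and 3C was -0.06 (95% interval -0.21 to 0.09, adjusted p = 0.661).

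**Figure D4:**
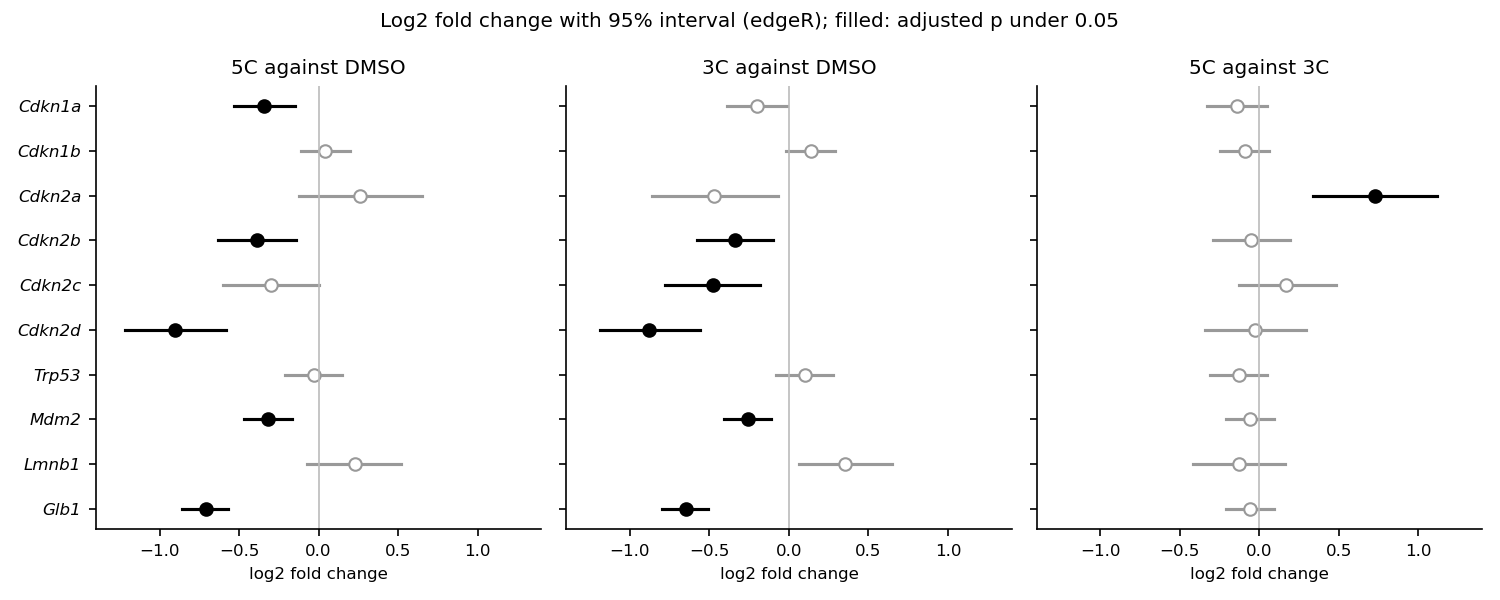
Log2 fold change (horizontal axes) of the 10 genes for each cocktail against DMSO and for 5C against 3C, with 95% intervals as lines. Filled points passed at an adjusted p under 0.05: 5, 5 and 1 genes, with Cdkn2d at -0.90 and -0.88 and Glb1 at -0.71 and -0.65 against DMSO, and Cdkn2a at 0.73 between the cocktails.

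Other lysosomal genes fell alongside Glb1. Of 18 further lysosomal enzymes and membrane genes tested, 12 were lower and 2 higher in 5C than in DMSO, with a median log2 fold change of -0.75 against 0.0 for all genes. In 3C, 14 were lower and none higher by edgeR, DESeq2 or an unadjusted p under 0.05, with a median of -0.61 against 0.01. The Glb1 values of -0.71 and -0.65 were close to these medians. Lower calls made up 13.1% of all genes tested in 5C and 11.8% in 3C.

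Gusb, the lysosomal β-glucuronidase, fell by 1.68 in 5C and 1.28 in 3C on the log2 scale (adjusted p = 8.09e-07 and 5.83e-06). The protease genes Ctsb (-1.69 and -1.37) and Ctsd (-1.58 and -1.38) and the α-mannosidase gene Man2b1 (-1.29 and -0.99) also fell in both comparisons, with adjusted p-values of 1.24e-06 to 2.56e-06 in 5C and 6.42e-06 to 1.27e-05 in 3C. The 2 genes that rose in 5C were Gaa, the acid α-glucosidase (0.21, adjusted p = 0.0354), and Tfeb (0.58, adjusted p = 0.0103). Between 5C and 3C, Ctsb, Gusb, Lamp1 and Man2b1 were lower in 5C (-0.29 to -0.40), and Ctsl and Gaa were higher (0.30 each).

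Macrophages are rich in lysosomes, and their markers moved in the same direction as Glb1. Of the 20 macrophage markers, 16 were lower and 2, Cd14 and Cx3cr1, higher in each cocktail than in DMSO, with median log2 fold changes of -2.02 in 5C and -1.57 in 3C, beside summed levels of 14100 to 15200 CPM in DMSO, 4950 to 4970 in 3C and 3350 to 3390 in 5C, with none at 0 in every library. Their part in the falls of Glb1, Cdkn2d and the other genes that were lower in the cocktails was not tested. Between 5C and 3C, 12 of the 20 were lower in 5C.

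**Figure D5:**
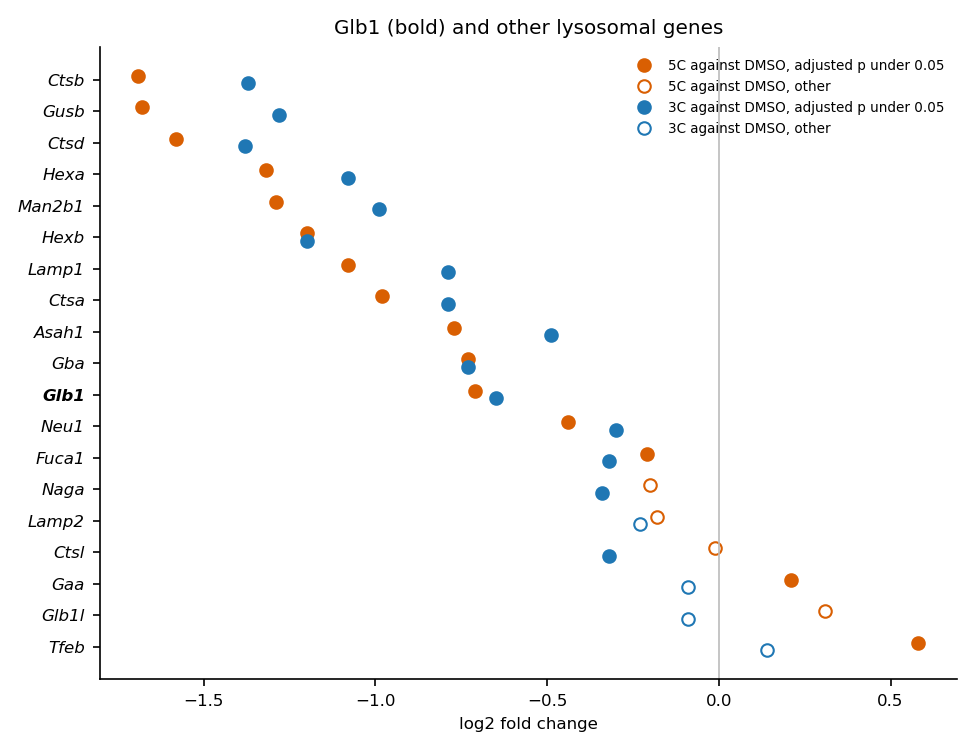
Log2 fold change (horizontal axis) of Glb1, in bold, and the 18 other lysosomal genes tested in 5C against DMSO (orange) and 3C against DMSO (blue). Filled points passed at an adjusted p under 0.05. Glb1 lies at -0.71 and -0.65, near the list medians of -0.75 and -0.61, with Ctsb, Gusb and Ctsd at the low end and Tfeb at the high end in 5C.

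Around p53, target genes moved in both directions. Of 24 p53 target genes besides Cdkn1a and Mdm2, 10 were lower and 2 higher in 5C than in DMSO (median log2 fold change -0.25). In 3C, 6 were lower and 3 higher (median -0.11). Against 3C, 5C had 4 lower and 1 higher (median -0.17). Among all genes tested, 13.1%, 11.8% and 5.33% were lower in these comparisons, and 15.6%, 12.7% and 7.33% were higher.

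Trp53inp1, which promotes p53-dependent cell death and autophagy, was at 556 and 538 CPM in DMSO, 591 and 581 CPM in 3C and 310 and 326 CPM in 5C. It fell by 0.76 on the log2 scale in 5C against DMSO (adjusted p = 4.08e-05), by 0.83 in 5C against 3C (adjusted p = 0.000258), and was at 0.07 in 3C (adjusted p = 0.553). The death receptor gene Eda2r fell by 0.64 in 5C and 0.46 in 3C (adjusted p = 0.000434 and 0.00355), and Zmat3, an RNA-binding protein gene, fell by 0.53 and 0.34 (adjusted p = 0.000768 and 0.0108). None of the targets passed with a change above 1 on this scale.

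Btg2, an antiproliferative p53 target, went the other way. It was at 87.0 and 95.3 CPM in DMSO, 129 and 142 CPM in 3C and 157 and 167 CPM in 5C, with no overlap between groups, and rose by 0.85 in 5C (adjusted p = 7.83e-05), 0.54 in 3C (0.00148) and 0.31 between 5C and 3C (0.0425). The other riser in 5C was the death receptor gene Fas (0.35, adjusted p = 0.0403), and the other risers in 3C were the epoxide hydrolase gene Ephx1 (0.45, adjusted p = 0.00758) and Perp, a gene of cell junctions (0.49, adjusted p = 0.00164). Between 5C and 3C, the lower targets were Bbc3 (-0.51), Perp (-0.56), Plk2 (-0.30) and Trp53inp1.

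Of 16 regulators of p53 and of the Cdkn2a locus, 3 were lower in 5C than in DMSO and 1 was lower in 3C, beside 13.1% and 11.8% of all genes tested. Hipk2, a kinase that phosphorylates p53, was at 183 and 141 CPM in DMSO, 127 and 109 CPM in 3C and 66.1 and 66.7 CPM in 5C. Its groups did not overlap, and it fell by 1.27 in 5C (adjusted p = 8.21e-05), 0.48 in 3C (0.0171) and 0.78 between 5C and 3C (0.00395). The acetyltransferase gene Ep300 (-0.45, adjusted p = 0.00259) and the DNA damage kinase gene Atm (-0.56, adjusted p = 0.0461) were the other genes lower in 5C. None of the 16 was higher in either cocktail than in DMSO by edgeR, DESeq2 or an unadjusted p under 0.05.

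Of the other CDK inhibitors, Cdkn1c, the CIP/KIP gene for p57, was at 17.6 and 14.1 CPM in DMSO, 24.7 and 25.7 CPM in 3C and 25.5 and 28.9 CPM in 5C. The DMSO libraries were below every cocktail library. Cdkn1c rose by 0.80 in 5C (SE 0.13, adjusted p = 0.00153) and 0.64 in 3C (SE 0.13, adjusted p = 0.00621) on the log2 scale. Cdkn3, a phosphatase gene that acts on CDKs, was at 0.104 to 0.846 CPM and passed in no comparison.

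Among 25 genes of the CDK, cyclin, RB and E2F machinery, 5 were lower and 1 higher in 5C than in DMSO, 1 was lower in 3C, and 2 were lower in 5C than in 3C. The shares of all genes tested that were lower were 13.1%, 11.8% and 5.33% in these comparisons. In 5C against DMSO, 15.6% were higher. Cyclin D1 (Ccnd1), the partner of the kinases that INK4 proteins inhibit, was at 211 and 276 CPM in DMSO, 283 and 278 CPM in 3C and 152 and 126 CPM in 5C. It fell by 0.79 in 5C against DMSO (adjusted p = 0.00374) and by 0.96 in 5C against 3C (adjusted p = 0.00411).

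Cdk6 also fell in 5C against both groups (-0.27 and -0.27, adjusted p = 0.0168 and 0.03), while Cdk4 rose against DMSO (0.23, adjusted p = 0.0289). The RB family genes Rb1 (-0.69, adjusted p = 0.00433) and Rbl2 (-0.25, adjusted p = 0.0357) were lower in 5C than in DMSO. Skp2, which targets p27 for breakdown, fell by 1.11 in 5C (adjusted p = 0.0127) and 1.02 in 3C (adjusted p = 0.021), from DMSO libraries of 14.7 and 8.63 CPM to 4.47 to 6.15 CPM in the cocktails. No gene of this list was higher by edgeR in 3C than in DMSO (Ccnd2 by DESeq2 and at an unadjusted p under 0.05) or in 5C than in 3C (Ccnd3 by DESeq2, and Ccnd3 and Cdk4 at an unadjusted p under 0.05).

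Of 20 proliferation genes, 3 were lower in 5C than in DMSO: the replication genes Mcm3 (-0.64, adjusted p = 0.00204), Mcm7 (-0.38, adjusted p = 0.0115) and Pcna (-0.34, adjusted p = 0.0458). The share of all genes tested that were lower in this comparison was 13.1%. Mcm7 was also lower in 5C than in 3C (-0.43, adjusted p = 0.0146). In 3C against DMSO none passed by edgeR or DESeq2, with 2, Mcm3 and Mki67, lower and none higher at an unadjusted p under 0.05. Mki67 was at -0.61 in 5C (adjusted p = 0.0537) and -0.51 in 3C (adjusted p = 0.114) against DMSO, and neither passed. The list medians were -0.16 for 5C and -0.02 for 3C against DMSO, and -0.13 between the cocktails. Those of all genes tested were 0.0, 0.01 and -0.01.

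Of 9 further nuclear lamina and chromatin genes, listed beside Lmnb1, 2 were lower in 5C than in DMSO and the other 7 did not pass. In 3C, 1 was lower and 1 higher than in DMSO, and 3 were lower in 5C than in 3C. The shares of all genes tested that passed were 28.7%, 24.5% and 12.7%. The list medians were 0.05, -0.06 and -0.08. Hmga1 and Hmga2, chromatin proteins found in senescence-associated heterochromatin, fell in 5C against DMSO by 1.37 and 1.86 on the log2 scale (adjusted p = 0.00176 and 0.000126). Hmga2 was at 28.6 and 43.2 CPM in DMSO, 23.9 and 22.3 CPM in 3C and 9.41 and 10.1 CPM in 5C, and it also fell in 3C (-0.67, adjusted p = 0.0281) and between 5C and 3C (-1.19, adjusted p = 0.0046). Hmga1 was lower in 5C than in 3C (-0.91, adjusted p = 0.0206). Tmpo, which encodes a lamin-binding protein, was higher in 3C than in DMSO (0.31, adjusted p = 0.00887) and lower in 5C than in 3C (-0.26, adjusted p = 0.0347).

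Secretory genes linked to senescence split. Of 21 tested (of 22 listed), 7 were higher and 8 lower in 5C than in DMSO, 3 higher and 9 lower in 3C, and 6 higher and 4 lower in 5C than in 3C. The list medians were 0.01, -0.02 and 0.04. In the same comparisons, 28.7%, 24.5% and 12.7% of all genes tested passed. The chemokine gene Ccl2 was at 32.0 and 37.5 CPM in DMSO, 135 and 131 CPM in 3C and 86.9 and 73.0 CPM in 5C, with no overlap between groups.

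Ccl2 rose by 1.22 in 5C (adjusted p = 3.13e-05) and 1.90 in 3C (4.67e-06), and Cxcl1, a neutrophil chemokine gene, rose by 0.90 (0.00021) and 1.59 (1.13e-05). The growth factor gene Ereg fell by 0.78 in 5C (0.00177) and 1.47 in 3C (5.6e-05). The largest falls of the list were those of Il1a (-2.88 in 5C and -1.89 in 3C), Mmp12 (-2.62 and -2.05) and Mmp13 (-2.43 and -1.84). All of these passed, from DMSO means of 7.20, 7.07 and 2.01 CPM. Timp1, a metalloproteinase inhibitor gene, fell by 1.2 in 3C (4.79e-05), was at 0.01 in 5C (0.961) and was 1.21 higher in 5C than in 3C (0.000273). The other gene higher in 3C was Igfbp7 (0.67, adjusted p = 9.66e-05), and the genes lower in 5C than in 3C were Areg, Ccl2, Cxcl1 and Cxcl2 (-0.68 to -1.56).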

How the data were processed

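Per the labels, RNA was extracted from 6 samples on day 16 and libraries were made with a kit that does not mark strand. The authors mapped reads to GRCm39. The submitters' processing notes also name featureCounts, Subread and DESeq2, and the aligner and the versions of featureCounts and Subread are not given in the sources used here. The deposited count table holds estimated counts per gene, whole numbers that the authors did not normalize. The deposited FPKM table holds values that the authors divided by gene length and by library total. Low estimated counts of 4 were in excess (4816 entries, beside 3121 of 3 and 2303 of 5), so the units per fragment are unknown, and intervals cover the spread between libraries only.

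Groups and replicate numbers came from the labels. edgeR 4.0.16 (R 4.3.3) was fitted to all 6 libraries with a coefficient per group (TMM, filterByExpr, robust quasi-likelihood F test, 3 residual degrees of freedom, common biological coefficient of variation 18.4%). P-values were Benjamini-Hochberg adjusted over the 19135 genes tested. A gene passed at an adjusted p under 0.05. All adjusted p-values come from this fit unless another tool, a library left out or another alternative fit is named. SEs were derived from the F statistic. The steps were tested on simulated data. Alternatives were RLE and upper quartile normalization, other filters on low counts, DESeq2 1.42.0, fits of the 4 libraries compared, a replicate block, stricter thresholds, limma 3.58.1 on log2(FPKM + 1) and log2(FPKM + 0.1), counts divided by 4, and leaving out each library. Figures were drawn with matplotlib 3.10.9.

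The 10 genes and the gene lists were chosen with earlier results of these data known. Named beside the 10 were, per pathway list, up to 4 genes with the smallest adjusted p (those past an absolute log2 fold change of 1, where any were), and any gene that a count of 5 or fewer refers to. The first genes of some marker lists were named as well. Further genes named in a range, as overlapping neighbours, for the size of a fall or beside a marker count were chosen after their values were seen. Positions and exons are from GENCODE on GRCm39, start windows from RefSeq, and protein sequences were not used here. Some items are not reported here.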

Additional observations from a re-analysis of the deposited data

Results flagged for a closer look

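Cdkn2a was flagged because its values against DMSO had opposite signs in the cocktails and the difference between them passed the test. The log2 fold change in 5C against 3C was 0.73 (SE 0.17, adjusted p = 0.0244, edgeR), with values against DMSO of 0.26 in 5C (adjusted p = 0.304) and -0.47 in 3C (adjusted p = 0.0857). Both 5C libraries (14.1 and 14.9 CPM) were above both 3C libraries (9.41 and 8.75 CPM), and the DMSO libraries were at 10.3 and 14.1 CPM. The difference did not pass when any of the 4 cocktail libraries was left out (0.67 to 0.78, adjusted p = 0.0759 to 0.157).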

How the results depend on the processing

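Over the 16 alternative fits, 442 of 480 fold changes of the 10 genes kept their direction and side of the threshold, 29 no longer passed, 3 came to pass and 6 changed sign. Those 6 were small values from leave-one-out fits, which ranged from -0.13 to 0.07 for Trp53 and -0.01 to 0.09 for Cdkn1b in 5C against DMSO, and from -0.14 to 0.11 for Cdkn2d and -0.13 to 0.02 for Cdkn2b between 5C and 3C. With an absolute log2 fold change above 1 required, 2242 genes passed for 5C against DMSO (5485 without that limit), 1809 for 3C against DMSO (4689) and 576 for 5C against 3C (2423), with 0, 0 and 0 of the 10. The share of calls that were higher was then 62.3%, 61.7% and 71.7%, against 54.4%, 51.9% and 57.9%. Above 0.5, 2 of the 10 and 3772 of all 19135 genes passed for 5C against DMSO, 2 and 3146 for 3C against DMSO, and 1 and 1615 for 5C against 3C. limma on FPKM passed 2 of the 10 in 3C against DMSO with either pseudocount, beside 3819 (pseudocount 1) and 3829 (0.1) of 19125 genes. Leaving out 1 library gave 3 to 5 of the 10 for 5C against DMSO, 2 to 6 for 3C against DMSO and 0 to 1 for 5C against 3C, and 2944 to 4504 of all genes in 3C against DMSO and 1062 to 2812 between 5C and 3C, where a lone library was assumed to vary like the other groups. The count of all genes between 5C and 3C was 1062 without 3C replicate 1, 1087 without 3C replicate 2, 1337 without 5C replicate 2 and 1612 without 5C replicate 1.

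Replicate numbers did not pair the libraries (correlations of deviations -0.0306, 7e-04 and 0.0161). With a replicate block, 5, 4 and 1 of the 10 and 5235, 4541 and 2284 of all genes passed. Scaling moved the median of all genes by at most 0.0213. Of 432 counts over the pathway lists, the counts more than 1.5 times smaller or larger were 30 of 48 under stricter thresholds, 39 of 144 without 1 library, 7 of 48 with limma and 10 of 192 otherwise. Cdkn2a had 597 to 1035 and Cdkn2d 601 to 1253 counts per library. A p that missed the threshold does not show equal levels.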
